A study of Mus musculus with 6 samples.

Results

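Genes for 10 leukocyte adhesion and cell contact molecules were followed in cultured stromal cells of mouse visceral fat. They were Icam1, Icam2, Vcam1, Mcam, Ncam1, Alcam, Cdh2, Cdh11, Pdpn and Cd200, taken by symbol as rows of a table of 55011 genes, and each of the 10 symbols had a row. The study treated the cells for 3 days with 10 nM irisin/HSP90α (3 libraries, called irisin here) or with phosphate-buffered saline (PBS, 3 libraries) and asked whether adipocyte precursors turn towards immunomodulatory stroma. Both groups carry the genotype label Il33-EGFP-, which the design text gives as cells negative for the EGFP reporter of the cytokine gene Il33. The cells came from fat labelled VAT (eWAT in the design text) and were cultured and lysed in 96-well plates. The sources used here do not give strain, sex, age or number of mice, nor whether PBS wells held HSP90α. Nothing in the labels makes replicates separate cultures or animals, so p-values measure the spread between these libraries, which may be technical.

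ICAM and VCAM proteins are cell surface members of the immunoglobulin superfamily that leukocyte integrins grip during adhesion and migration. Inflammatory cytokines raise ICAM-1 and VCAM-1 on endothelium and on fibroblasts. Cadherins hold like cells together and are tied to actin by catenins. Podoplanin (gene Pdpn) and VCAM-1 are carried by the fibroblastic reticular cells of lymph nodes, where podoplanin meets the receptor CLEC-2 of platelets and dendritic cells, and Icam1 marks a class of preadipocytes in fat.

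Depth ran from 5360724 to 6588363 counts in the irisin libraries and from 5271309 to 6745799 in the PBS libraries, so a level of 1 CPM (counts scaled to a common library total) stood on 5.17 to 6.89 counts. Along the component of gene expression that separated libraries within groups (23.9% of variance), irisin replicate 1 and PBS replicate 3 lay on one side (-17.2 and -29.6) and the other 4 libraries on the other (8.59 to 15.5). Several results below rest on them and are given with and without both. That pair was chosen after the data were seen and leaves the closest libraries of each group. P-values without it are therefore too small by that choice. For single genes fold changes alone are given from that fit, and its counts of calls, given last, share this limit. Leaving out PBS replicate 3 by itself, the farthest out, raised the genes with an adjusted p below 0.05 from 912 to 1290. Calls gained in that fit are given with this limit. The stromal label stood on high levels of Pdgfra, a receptor of fat stromal cells (1765 CPM with irisin, 1161 CPM with PBS), and Col1a1, a collagen chain (11590 CPM with irisin, 8249 CPM with PBS). Of 8 stromal markers these 2 rose. Lum (253.2 CPM with irisin, 427.8 CPM with PBS) and Thy1 (16.1 CPM with irisin, 39.3 CPM with PBS) fell. Ptprc, which defines leukocytes, averaged 0.171 CPM with irisin and 0.312 CPM with PBS, and Pecam1, which defines endothelium, 0.107 CPM with irisin and 0.624 CPM with PBS.

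Icam1 rose 1.81-fold and Vcam1 1.41-fold with irisin, and the other 6 members tested did not pass the threshold of an adjusted p of 0.05. Adjusted p-values are those of edgeR's quasi-likelihood test over 12296 genes with Benjamini-Hochberg adjustment. In all genes tested, 7.42% were called, 4.2% as higher and 3.22% as lower with irisin, against 2 higher and 0 lower among the 8 members tested. The median log2 fold change (irisin over PBS) of those 8 was 0.30, against -0.01 over all genes tested, and 7 of the 8 values were above 0, against 5991 of 12296. The members were chosen with earlier results of these data known, so these comparisons describe them and are no test. The 3 irisin values lay wholly above the 3 PBS values in 3 members (Icam1, Vcam1 and Cdh2), and in 12.1% of all genes tested. With libraries scaled by total counts alone, Vcam1 lost its call (adjusted p = 0.0538), the median over all genes was -0.09, and 41.2% of all calls were upward against 56.6%. RNA was measured in bulk, so more cells of a kind and more RNA per cell cannot be told apart.

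**Figure D1:**
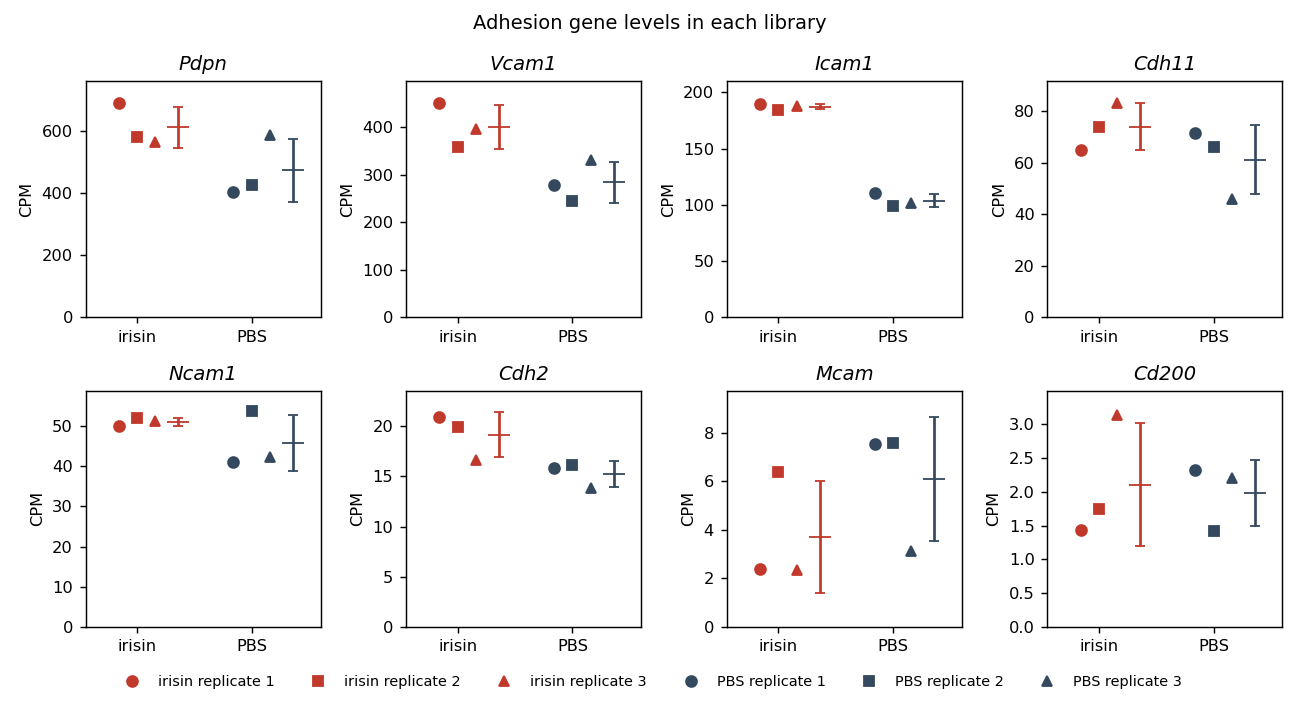
Level in CPM (vertical axis, from 0) of the 8 members tested in each of 3 irisin and 3 PBS libraries, with mean and SD at the right of each group. The irisin values lie wholly above the PBS values for Icam1, Vcam1 and Cdh2, and overlap them for the other 5.

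Icam1 encodes ICAM-1, the ligand of the leukocyte integrins LFA-1 and Mac-1. Its levels were 189.6, 184.6 and 187.8 CPM in irisin replicates 1, 2 and 3, against 110.0, 99.2 and 101.3 CPM in PBS replicates 1, 2 and 3. The irisin libraries were nearly level with each other, and all stood far above the highest PBS library. The means were 187.3 ± 2.56 CPM with irisin and 103.5 ± 5.74 CPM with PBS (SD, n = 3 each). The log2 fold change was 0.86 ± 0.085 (standard error), with a 95% interval of 0.67 to 1.04 (edgeR adjusted p = 2.27e-05). Icam1 stood at place 128 of 12296 genes ranked by p. It passed the threshold under every alternative run, with log2 fold changes of 0.83 to 0.90 when 1 library was left out.

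The Icam1 promoter is shown because Icam1 is the member of lowest p and its start region is held by RefSeq (GRCm38.p6). The window covers 250 bases before to 50 from the RefSeq start site, at chr9:21015690-21015989 on the plus strand, and is written 5′ to 3′. Capitals mark a form of the NF-κB site, GGAAATTCC, and a TATA box, TATAAA.
Icam1 promoter: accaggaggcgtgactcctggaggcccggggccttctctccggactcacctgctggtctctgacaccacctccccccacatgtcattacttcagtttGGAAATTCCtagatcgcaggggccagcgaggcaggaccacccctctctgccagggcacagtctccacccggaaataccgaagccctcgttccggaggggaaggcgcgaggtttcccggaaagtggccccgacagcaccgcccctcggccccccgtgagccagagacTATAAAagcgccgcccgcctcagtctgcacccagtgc
NF-κB is the transcription factor through which cytokines such as TNF switch on ICAM-1. The site lies at -153 to -145 from the RefSeq start (base 1) and the TATA box at bases 14 to 19. GENCODE puts the start of Icam1 45 bases further along. Searched on both strands, GGAAATTCC was found in 0.317% of 32851 promoter windows of the same length and TATAAA in 13.6%. Windows were held for 5 members (Icam1, Pdpn, Mcam, Cd200 and Alcam), and GGAAATTCC and TATAAA were found in that of Icam1 alone. The longer κB consensus, held by 4.51% of windows, was in none of the 5. The AP-1 motif TGANTCA, held by 7.81%, was in none either. The GAS motif of STAT factors, TTCNNNGAA (8.3% of windows), was also found in that of Icam1 alone, and the GC box GGGCGG (35.7%) in each of the 5. None of these motifs overlapped in the Icam1 window. These are matches of letters, and no binding was measured. GGAAATTCC was picked as a fixed string beside the consensus, so its rarity and its presence in Icam1 alone are no test. No window was held for Vcam1.

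Vcam1 encodes VCAM-1, the ligand of the integrin VLA-4 on lymphocytes, monocytes and eosinophils. Its levels were 450.5, 358.1 and 395.8 CPM in irisin replicates 1, 2 and 3, against 278.1, 245.0 and 331.0 CPM in PBS replicates 1, 2 and 3. The lowest irisin library stood only a little above the highest PBS library, and irisin replicate 1 and PBS replicate 3 were the highest of their groups. Vcam1 averaged 401.5 ± 46.4 CPM with irisin and 284.7 ± 43.4 CPM with PBS (SD, n = 3 each), a log2 fold change of 0.50 ± 0.12 with a 95% interval of 0.24 to 0.75 (edgeR adjusted p = 0.0216). The call was lost without irisin replicate 1 (log2 fold change 0.41, adjusted p = 0.0843), irisin replicate 3 (0.51, 0.0729), PBS replicate 1 (0.48, 0.0995) or PBS replicate 2 (0.40, 0.0965). Without irisin replicate 1 and PBS replicate 3 together the log2 fold change was 0.53.

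The ratio of Vcam1 to Icam1 counts within a library needs no scaling between libraries. There were 2.38, 1.94 and 2.11 Vcam1 counts for each Icam1 count in irisin replicates 1, 2 and 3, against 2.53, 2.47 and 3.27 in PBS replicates 1, 2 and 3. The ratio was lower in every irisin library than in any PBS library (exact two-sided permutation test, p = 0.1, the smallest that 3 against 3 allows). Pdpn counts for each Icam1 count were likewise 3.64, 3.15 and 3.02 with irisin and 3.69, 4.30 and 5.83 with PBS (exact permutation p = 0.1). Pdpn counts for each Vcam1 count overlapped, at 1.53, 1.62 and 1.43 with irisin and 1.46, 1.74 and 1.78 with PBS (exact permutation p = 0.3). These 3 ratios were chosen after the levels were seen, and adjusted over the 3 no p could fall below 0.1.

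Pdpn had the highest level per length of exon of the 10. Podoplanin is a mucin-like membrane protein that also binds the actin linkers ezrin and moesin inside the cell. Pdpn stood at 690.5, 581.1 and 567.5 CPM in irisin replicates 1, 2 and 3, against 405.6, 426.4 and 589.9 CPM in PBS replicates 1, 2 and 3. PBS replicate 3 alone reached the irisin range, lying above irisin replicates 2 and 3, and the other PBS libraries were clearly lower. With all 6 libraries Pdpn did not pass (613.1 ± 67.4 CPM with irisin and 474 ± 100.9 CPM with PBS, log2 fold change 0.37 ± 0.14, 95% interval 0.06 to 0.68, edgeR adjusted p = 0.168). It passed as higher without PBS replicate 3 (log2 fold change 0.56, adjusted p = 0.000222), the PBS library of highest Pdpn. The log2 fold change was 0.47 without both irisin replicate 1 and PBS replicate 3. It also passed with limma-voom with quality weights (adjusted p = 0.0136), a fit that can give less weight to a library that stands apart. With no filter on low counts Pdpn passed too (0.00329), and not with DESeq2 (0.113). Nor did Pdpn pass in any other alternative fit of all 6 libraries (edgeR adjusted p 0.16 to 0.283). With any other single library left out it did not pass either (0.209 to 0.426).

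**Figure D2:**
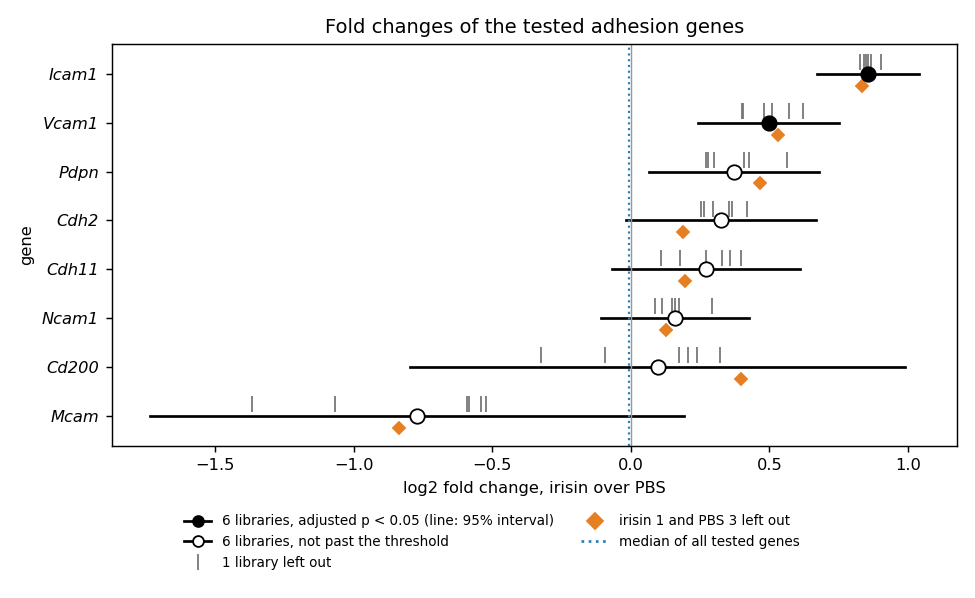
Log2 fold change, irisin over PBS (horizontal axis), of the 8 members tested, as circles with 95% intervals, filled where adjusted p is below 0.05; ticks are fits with 1 library left out diamonds the fit without irisin replicate 1 and PBS replicate 3, and the dotted line the median of all genes tested (-0.01). The ticks of Icam1 stay between 0.83 and 0.90, while those of Mcam run from -1.37 to -0.52 and those of Cd200 lie on both sides of 0.

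Within groups the libraries deviated in several members. Irisin replicate 1 exceeded its group mean in Pdpn by 0.18 and in Vcam1 by 0.17 on the log2 CPM scale, and PBS replicate 3 exceeded its own by 0.34 in Pdpn and 0.23 in Vcam1. The same libraries were below their group means in Cdh11, with deviations of -0.18 in irisin replicate 1 and -0.38 in PBS replicate 3. In Mcam the deviations were -0.42 in irisin replicate 1 and -0.80 in PBS replicate 3, with irisin replicate 3 as low (-0.45). The pair went opposite ways in Cdh2 (0.13 in irisin replicate 1, -0.14 in PBS replicate 3) and Cd200 (-0.40 in irisin replicate 1, 0.16 in PBS replicate 3). Icam1 showed the smallest spread of the 8, with deviations of -0.02 to 0.02 in irisin libraries and -0.06 to 0.09 in PBS libraries. What sets the 2 libraries apart was not tested. They had the fewest genes with a count, 20667 in irisin replicate 1 and 19816 in PBS replicate 3, against 20837 to 22083 in the other 4 libraries. PBS replicate 3 also had the lowest depth and the lowest ribosomal share of counts (2.16%, against 2.42% to 2.51% in the other 5). The mitochondrial share was 0.916% in irisin replicate 1 and 0.891% in PBS replicate 3, beside 0.847% to 0.906% in the other 4.

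**Figure D3:**
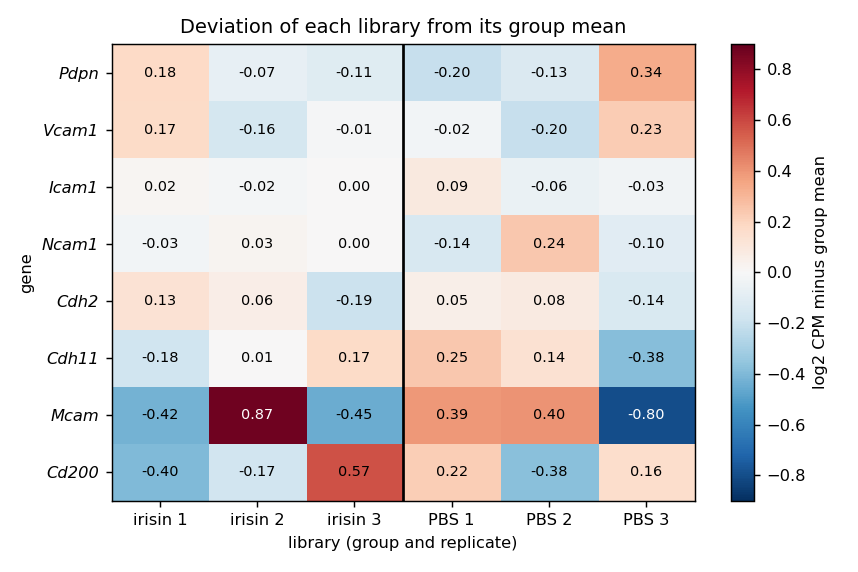
Deviation of log2 CPM from the mean of the library's own group for the 8 members tested (rows) in 3 irisin and 3 PBS libraries (columns), red above and blue below the mean. Irisin replicate 1 and PBS replicate 3 are both above their means in Pdpn and Vcam1 and below them in Cdh11 and Mcam.

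Neither mesenchymal cadherin passed the test. Cdh11 encodes cadherin-11, the cadherin of fibroblasts and osteoblast precursors, and had 65.0, 74.0 and 83.1 CPM in irisin replicates 1, 2 and 3, against 71.4, 66.2 and 46.0 CPM in PBS replicates 1, 2 and 3. The groups overlapped, and PBS replicate 3 was the lowest library (log2 fold change 0.27 ± 0.16, 95% interval -0.07 to 0.61, edgeR adjusted p = 0.415). Cdh2 encodes N-cadherin, found on neurons, muscle and mesenchymal cells. Its levels were 21.0, 19.9 and 16.7 CPM in irisin replicates 1, 2 and 3, against 15.8, 16.2 and 13.8 CPM in PBS replicates 1, 2 and 3. The groups did not overlap, by a margin of 16.7 against 16.2 CPM (log2 fold change 0.32 ± 0.16, 95% interval -0.02 to 0.67, edgeR adjusted p = 0.308). Without the 2 libraries that stand apart the log2 fold changes were 0.20 for Cdh11 and 0.19 for Cdh2.

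Ncam1 and Mcam, immunoglobulin-family molecules best known from nerve and vessel, did not pass either. Ncam1 encodes NCAM, which binds itself on neighbouring cells. It stood at 50.1, 52.0 and 51.2 CPM in irisin replicates 1, 2 and 3, against 41.1, 53.7 and 42.3 CPM in PBS replicates 1, 2 and 3. PBS replicate 2 was the highest of all 6 libraries (log2 fold change 0.16 ± 0.12, 95% interval -0.11 to 0.43, edgeR adjusted p = 0.582). Mcam encodes the melanoma cell adhesion molecule of endothelial cells and pericytes. It had 2.40, 6.38 and 2.36 CPM in irisin replicates 1, 2 and 3, on 15, 33 and 15 counts, against 7.55, 7.61 and 3.13 CPM in PBS replicates 1, 2 and 3, on 52, 48 and 17 counts. Irisin replicate 2 was near the upper PBS libraries and PBS replicate 3 near the lower irisin libraries, so the groups overlapped widely (log2 fold change -0.77 ± 0.44, 95% interval -1.74 to 0.19, edgeR adjusted p = 0.409). Without irisin replicate 1 and PBS replicate 3 together the log2 fold change of Mcam was -0.84.

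Some markers of mural cells, the vascular cells that carry Mcam, were lower with irisin. The summed level of 9 mural markers was 134.1, 177.8 and 150.4 CPM in irisin replicates 1, 2 and 3, against 236.7, 208.7 and 179.3 CPM in PBS replicates 1, 2 and 3 (exact two-sided permutation p = 0.1, the smallest possible). Of 6 tested, Des, Cspg4 and Abcc9 fell, and Notch3, Myh11 and Cnn1 overlapped between groups and did not pass. Over all genes tested 3.22% were called lower. Des, the muscle filament desmin, made up most of the gap, at 33.7 CPM with irisin and 73.8 CPM with PBS, while Notch3 averaged 39.8 CPM with irisin and 33.2 CPM with PBS. Without Des the sums were 105.1, 143.0 and 113.1 CPM in irisin replicates 1, 2 and 3, against 157.8, 130.6 and 115.1 CPM in PBS replicates 1, 2 and 3, and the groups overlapped. The defining pericyte gene Rgs5 was near 0 in both groups (0.846 CPM with irisin, 0.835 CPM with PBS). Irisin replicate 2 was the highest irisin library, and PBS replicate 3 the lowest PBS library, in Mcam and in both of these sums. The sum of 11 endothelial markers was 25.5 to 32.7 CPM with irisin and 39.2 to 49.9 CPM with PBS. Tek made up most of it, at 22.4 CPM with irisin and 33.8 CPM with PBS on average. Of 3 endothelial markers tested, Tek alone was called, as lower (edgeR adjusted p = 0.0303). Flt1 averaged 2.72 CPM with irisin and 5.45 CPM with PBS, with its irisin values wholly below (0.0895). Egfl7 averaged 2.94 CPM with irisin and 4.23 CPM with PBS, and overlapped (0.455). Tie1 and Cldn5 had a mean of 0 with irisin and 0.0528 CPM with PBS. The means of Vwf, Cdh5 and Esam, all below the low-count filter, were higher with irisin, and those of the other endothelial markers lower. Vwf had 5, 8 and 8 counts in irisin replicates 1 to 3, against 0, 2 and 0 in PBS replicates 1 to 3. The part of these cell types in the Mcam values was not tested.

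Cd200 encodes a membrane glycoprotein that restrains myeloid cells through the receptor CD200R. Its levels were 1.44, 1.74 and 3.14 CPM in irisin replicates 1, 2 and 3, on 9, 9 and 20 counts, against 2.32, 1.43 and 2.21 CPM in PBS replicates 1, 2 and 3, on 16, 9 and 12 counts. The ranges overlapped, with irisin replicate 3 above every PBS library (log2 fold change 0.10 ± 0.41, 95% interval -0.80 to 0.99, edgeR adjusted p = 0.945). At these counts the interval leaves room for changes of Cd200 in either direction. Icam2, an integrin ligand of endothelium and platelets, had 0, 1 and 1 counts in irisin replicates 1, 2 and 3, against 2, 1 and 0 counts in PBS replicates 1, 2 and 3. Alcam, whose protein binds CD6 on T cells, had 1 count in each irisin library, against 2, 2 and 0 counts in PBS replicates 1, 2 and 3. Both were below the low-count filter and were not tested. A library with 0 counts allows a level of up to 0.480 CPM (irisin replicate 1) or 0.552 CPM (PBS replicate 3), taking 3 counts as the limit, for counting error only.

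Divided by the exon length of each gene, Pdpn stood far above the rest, at 337 ± 37.1 CPM per kb with irisin and 261 ± 55.6 CPM per kb with PBS (SD, n = 3 each). Vcam1 followed with 45.3 ± 5.24 CPM per kb with irisin and 32.1 ± 4.89 with PBS, and Icam1 with 43.0 ± 0.581 with irisin and 23.7 ± 1.31 with PBS. The Vcam1 and Icam1 ranges overlapped in irisin libraries (40.4 to 50.8 against 42.3 to 43.5 CPM per kb) and were apart in PBS libraries (27.6 to 37.3 against 22.8 to 25.2). Cdh11 (8.32 CPM per kb with irisin, 6.88 with PBS) came next, then Ncam1 (5.90 with irisin, 5.28 with PBS). These neighbours did not overlap with irisin and did with PBS. Below them came Cdh2 (2.38 with irisin, 1.89 with PBS), Mcam (1.11 with irisin, 1.82 with PBS) and Cd200 (0.634 with irisin, 0.598 with PBS). Cdh2 and Mcam overlapped with PBS alone and Mcam and Cd200 with irisin alone. Lengths are all annotated exon bases of a gene, which exceed any one transcript.

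**Figure D4:**
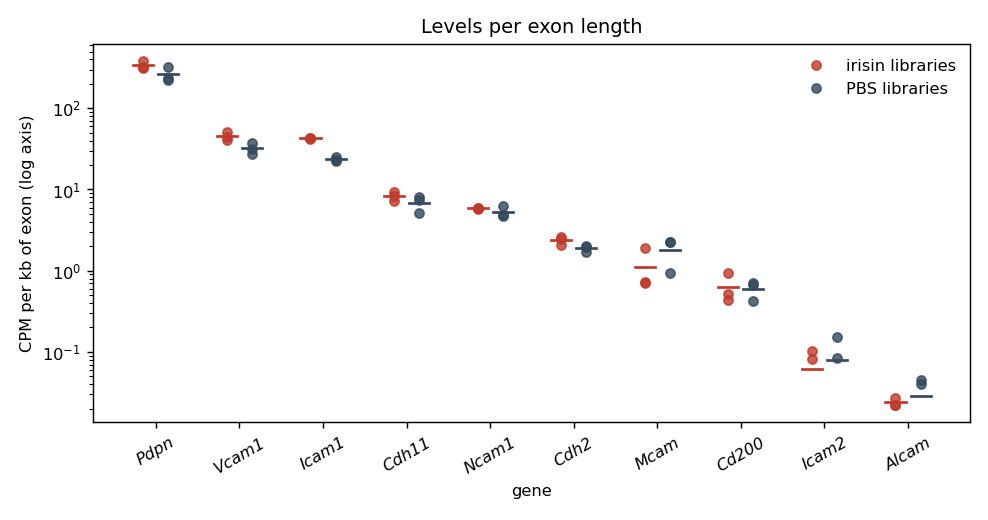
CPM per kb of exon (log axis) of the 10 members in irisin libraries and PBS libraries, with lines at the means; libraries with 0 counts are not drawn. Pdpn stands highest, at 337 with irisin and 261 with PBS, and Icam2 and Alcam lowest, on 0 to 2 counts per library.

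All 10 members are protein-coding in GENCODE M21 (GRCm38, mm10). Icam1 lies on chromosome 9 from 21015985 to 21028817 on the plus strand, Vcam1 on chromosome 3 from 116109949 to 116129688 on the minus strand, and Pdpn on chromosome 4 from 143267431 to 143299564 on the minus strand. Each count covers a whole gene, and parts of a gene were not measured on their own. No member shares exon bases with a gene on its own strand. Antisense genes overlap exons of Icam1 (511 bases), Ncam1 (417), Vcam1 (61) and Mcam (17). The sources used here do not say whether counting used strand, so reads of these pairs cannot be told apart.

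By pattern over the 6 libraries, the genes most like Icam1 among 8802 with a mean of at least 10 CPM were Sod3, an extracellular superoxide dismutase (Pearson r of log2 CPM 0.998), Ifnar2, a subunit of the type I interferon receptor (0.998), and Ndufa4l2, a subunit-like mitochondrial gene that hypoxia induces (0.998). All of them rose, Sod3 to 912 ± 30.8 CPM with irisin, against 452 ± 29.6 CPM with PBS (log2 fold change 1.01 ± 0.08, edgeR adjusted p = 4.79e-06). Ifnar2 rose 2.41-fold (adjusted p = 8.86e-07) and Ndufa4l2 9.99-fold (adjusted p = 5.28e-07). The points share libraries and the difference between groups, so such values describe the likeness only. Hmbox1, Bcl9 and Synj2 were most like Mcam (r 0.986, 0.981 and 0.977), and none of them passed the test (adjusted p 0.561 to 0.684).

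Chl1, which rose, and Thy1, which fell, are other adhesion molecules of the immunoglobulin family. Both had log2 fold changes larger in size than any member tested. The list held 27 genes and 16 were tested, of which 4 rose, 1 fell and 11 missed the threshold, with a median log2 fold change of 0.12, against -0.01 over all genes tested. Of all genes tested 4.2% were called higher and 3.22% lower, the shares to set beside this list and those below. The lists too were chosen with earlier results known, so shares above these describe the lists and are no test. Chl1, a neural adhesion molecule close to L1, had 200.7, 175.3 and 169.1 CPM in irisin replicates 1, 2 and 3, against 35.7, 32.8 and 36.5 CPM in PBS replicates 1, 2 and 3. Every irisin library stood several times above every PBS library, and Chl1 rose 5.19-fold (log2 fold change 2.38 ± 0.105, edgeR adjusted p = 2.5e-08). Emb, embigin, rose by 0.68 ± 0.11 on the log2 scale (adjusted p = 0.00194), Nectin2, a nectin that also engages T and NK cell receptors, 1.30-fold (0.00717), and Bsg, basigin, 1.35-fold (0.00811). Thy1, a marker of fat progenitors that also binds leukocyte integrins, fell to 16.1 ± 3.16 CPM with irisin, against 39.3 ± 9.57 CPM with PBS (log2 fold change -1.30 ± 0.20, adjusted p = 0.00138). Bsg lost its call without PBS replicate 1 (adjusted p = 0.0557) or PBS replicate 2 (0.0513).

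**Figure D5:**
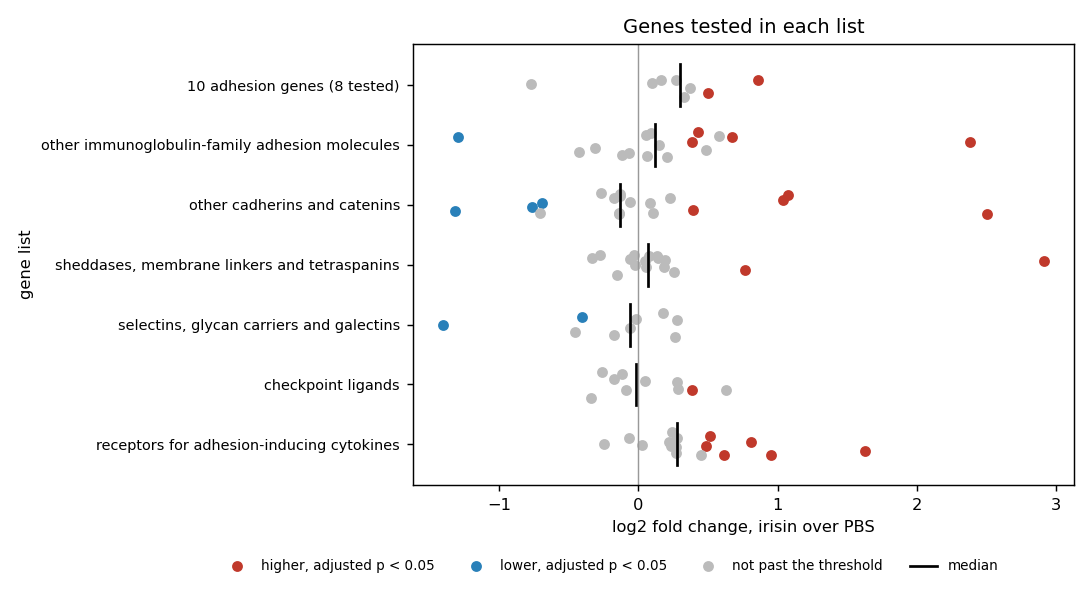
Log2 fold change, irisin over PBS (horizontal axis), of each gene tested in the 10 adhesion genes and 6 further lists (rows), coloured by call, with black lines at the medians. Chl1, Cdh6 and Mmp9 lie farthest to the right, at 2.38, 2.51 and 2.91.

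Other cadherins and catenins went both ways, with 4 higher, 3 lower and 11 not past the threshold of 18 tested (35 listed, median log2 fold change -0.13). The rises were Cdh6, K-cadherin (log2 fold change 2.51 ± 0.54, adjusted p = 0.0118, on 10 to 15 counts per irisin library and 1 to 4 per PBS library), the protocadherins Pcdh9 (1.07 ± 0.25, 0.0207) and Pcdh7 (0.39 ± 0.10, 0.0365), and the giant cadherin Fat4 (1.04 ± 0.28, 0.0391). The falls were Pcdh18 (-0.69 ± 0.15, 0.0135), Cdh13, the membrane-anchored T-cadherin that binds adiponectin (-1.32 ± 0.32, 0.0238), and Jup, plakoglobin (-0.76 ± 0.21, 0.0473). None of these 7 calls held in each fit with 1 library left out. Leaving out irisin replicate 2 or 3, or PBS replicate 1 or 2, ended the calls of Pcdh7, Jup and Fat4, and leaving out irisin replicate 1 ended those of Pcdh7 and Jup (adjusted p 0.0745 to 0.202). Leaving out any irisin replicate ended the calls of Pcdh9 and Cdh13, as did leaving out PBS replicate 2 for Pcdh9 (0.0573 to 0.0827) and PBS replicate 1 for Cdh13 (0.0588 to 0.131). Cdh6 lost its call without irisin replicate 3, PBS replicate 1 or PBS replicate 2 (0.0539 to 0.0739), and Pcdh18 without PBS replicate 1 (0.0829) or irisin replicate 2 (0.0738).

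Genes whose products cut, anchor or cluster adhesion molecules mostly did not pass. Of 16 sheddases, membrane linkers and tetraspanins, all tested, 2 rose and 14 did not pass (median log2 fold change 0.07). Mmp9, a gelatinase, had 38, 29 and 30 counts in irisin replicates 1, 2 and 3, against 1, 3 and 9 in PBS replicates 1, 2 and 3 (log2 fold change 2.91 ± 0.50, adjusted p = 0.00238), and Cd82, a tetraspanin, rose 1.70-fold (adjusted p = 0.00363). Rdx, radixin, had a log2 fold change of 0.26 ± 0.08 (adjusted p = 0.0765) and Mmp14, a membrane-bound metalloproteinase, of -0.28 ± 0.11 (0.183), and both passed without PBS replicate 3 (0.0299 and 0.00495). Of 9 selectin, glycan carrier and galectin genes tested (16 listed, median -0.06), Cd34 and Lgals3 fell and 7 did not pass. Cd34, a sialomucin of progenitor cells, had 38.9 ± 7.17 CPM with irisin and 103.2 ± 5.42 CPM with PBS (log2 fold change -1.40 ± 0.13, edgeR adjusted p = 1.21e-05). Lgals3, galectin-3, had a log2 fold change of -0.41 ± 0.10 (adjusted p = 0.0195), a call that ended when irisin replicate 2 or 3, or PBS replicate 1 or 2, was left out (0.0571 to 0.129). Lgals9, galectin-9 (0.28 ± 0.09, adjusted p = 0.0981), and Cd44, the hyaluronan receptor (0.26 ± 0.10, 0.171), did not pass.

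Among 10 tested ligands of immune checkpoints, the class to which Cd200 belongs, Nectin2 alone was called (13 listed, median log2 fold change -0.02). Lgals9 and Cd47, the signal against being eaten that macrophages read (log2 fold change 0.29 ± 0.12, adjusted p = 0.216), passed without PBS replicate 3 (adjusted p = 0.0152 and 0.0231). Vsir, the checkpoint VISTA, had a log2 fold change of -0.34 ± 0.15 (adjusted p = 0.226). Receptors for cytokines and microbial products that raise adhesion molecules had a median log2 fold change of 0.28. This list was chosen with earlier results of these data known, so its shares describe it and are no test. Against 4.2% higher and 3.22% lower over all genes tested, these receptors held 6 rises and 0 falls of 16 tested. Those of lowest p were Tlr2, which senses bacterial lipoproteins (41.1 ± 3.07 CPM with irisin and 13.3 ± 0.615 CPM with PBS, log2 fold change 1.62 ± 0.13, adjusted p = 4.72e-06), Il4ra (734.5 ± 19.5 CPM with irisin and 419.5 ± 25.2 CPM with PBS, adjusted p = 2.54e-05), Il13ra1 (1.94-fold, 9.25e-05) and Il1r1 (1.53-fold, 0.00102). Each of these 4 calls held with any 1 library left out. The 10 receptors not called included Tnfrsf1a (log2 fold change 0.025, edgeR adjusted p = 0.958), Ltbr (-0.07, 0.911) and Tlr4 (-0.25, 0.261). These were the lowest of the 10. The rest all lay above 0, with log2 fold changes from 0.22 (Il17ra, edgeR adjusted p = 0.226) to 0.45 (Cd40, 0.743). The part of these receptors in the Icam1 and Vcam1 values was not tested. Among the called genes of these lists, Emb (686 bases), Nectin2 (135), Pcdh7 (2235), Cd34 (148), Il4ra (571) and Fat4 (1209 and 281) share exon bases with genes on the other strand, with the same limit on telling their reads apart.

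The leukocyte side of these contacts was almost missing from the cultures. Of 12 counter-receptor genes 1 passed the low-count filter, Itga9, an integrin subunit that stromal cells can carry too (32.8 ± 3.89 CPM with irisin and 41.03 ± 5.51 CPM with PBS, log2 fold change -0.33 ± 0.14, edgeR adjusted p = 0.228). Itgb2, the shared subunit of the ICAM-1 receptors, averaged 0.941 CPM with irisin and 0.579 CPM with PBS, and Itga4, of the VCAM-1 receptor, 0.884 CPM with irisin and 0.268 CPM with PBS. The sum of 12 leukocyte markers was 72.3 to 93.6 CPM with irisin and 71.9 to 88.0 CPM with PBS (exact permutation p = 0.9). Most of it was Csf1r (59.2 CPM with irisin and 59.7 CPM with PBS), while C1qa and Cd3e had no count in any library. Mesothelial markers, whose cells carry podoplanin, summed to 44.1 to 54.1 CPM with irisin and 37.2 to 43.1 CPM with PBS (exact permutation p = 0.1). Wt1 made up most of that sum (43.2 CPM with irisin and 37.6 CPM with PBS), while the defining marker Msln had 3 counts in irisin replicate 1 and 0 in each other library, and Upk1b had none. The 6 Schwann cell markers, set beside Ncam1, summed to 5.66 to 9.66 CPM with irisin and 7.26 to 8.87 CPM with PBS (exact permutation p = 0.8). Of the 8 stromal markers 2 rose and 2 fell, against 4.2% higher and 3.22% lower over all genes tested. The stromal sum was 50350 to 55320 CPM with irisin and 36700 to 44320 CPM with PBS (exact permutation p = 0.1). The collagen chains Col3a1 (25250 CPM with irisin, 19190 CPM with PBS) and Col1a1 (11590 CPM with irisin, 8249 CPM with PBS) made up most of that sum. The part of stromal markers in the adhesion gene values was not tested.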

How the data were processed

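Polyadenylated RNA of 6 libraries was sequenced by the ultra-low-input protocol of the Immunological Genome Project, per the labels. The authors deposited raw counts per gene symbol. STAR 2.7.3a, featureCounts and mm10 were used, per the submitters' processing notes, but the sources used here name no annotation release, strand setting or read filter. Groups and replicate numbers came from sample titles.

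From the deposited counts, edgeR 4.0.16 (R 4.3.3) computed TMM factors, kept 12296 of 31436 genes with any count (filterByExpr, count minimum 10) and tested irisin against PBS in all of them by robust quasi-likelihood fits, with Benjamini-Hochberg adjustment and 0.05 as threshold. Standard errors are the log2 fold change divided by the root of F, and 95% intervals use the test's degrees of freedom. CPM are counts over the summed counts of tested genes, scaled by TMM. Pattern likeness used log2 CPM with edgeR's default prior. The members and the 7 context lists were chosen with earlier results of these data known. Named were the 10 members, up to 4 genes of lowest p in each list, every called gene where 5 or fewer were called in a direction, and the 3 genes most alike in pattern. Other genes named (marker genes, Itgb2, Itga4, Tnfrsf1a, Ltbr, Tlr4, Il17ra and Cd40) were chosen after their values were seen. Promoters came from RefSeq by symbol (5 of 10 members).

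Alternatives were RLE, upper quartile and total-count scaling, a count minimum of 50, none at all, DESeq2 1.42.0, limma-voom (limma 3.58.1) with quality weights, no robust dispersion, a replicate block, mitochondrial and ribosomal protein genes left out, and each library left out. After the data were seen, a fit without both irisin replicate 1 and PBS replicate 3 was added. Steps were tested on simulated counts with the same dispersion for every gene and no library set apart. These data are less even, so that test does not gauge the calls given here. Counts of replicates differed by more than sampling noise (chi-square over its degrees of freedom 2.71 to 14.6).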

Additional observations from a re-analysis of the deposited data

How the results depend on the processing

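Calls of members numbered 2 higher and 0 lower. They numbered 1 and 0 with total counts alone, and 1 to 3 and 0 when 1 library was left out. Calls over all genes were 912, 1680 without irisin replicate 1 and PBS replicate 3 together, and 589 (without irisin replicate 2) to 1290 (without PBS replicate 3). Same-numbered libraries of the groups did not deviate together (r -0.24, 0.16 and -0.18 for numbers 1, 2 and 3), while irisin replicate 1 did with PBS replicate 3 (0.36). With the replicate block 691 genes were called, and 2 members as higher and 0 as lower. Cd200 turned to -0.33 without irisin replicate 3 and to -0.09 without PBS replicate 2, and ran up to 0.32 with 1 library left out (adjusted p 0.804 to 0.961).

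With a count minimum of 50, cadherins and catenins held 2 rises and 1 fall, and sheddases and linkers 1 rise. Cdh6, Fat4, Cdh13 and Mmp9 were then not tested, and Jup was tested and did not pass (adjusted p = 0.0616). With the replicate block, cadherin falls and selectin-list falls were 1 each. With limma-voom, sheddase falls were 1, selectin-list rises 1 and checkpoint rises 2. Immunoglobulin-family falls were 2 with total counts, with no filter and without the 2 libraries together. That last fit, which keeps the closest libraries of each group, also gave 1 sheddase fall, 3 selectin-list rises and 3 checkpoint rises. With 1 library left out, immunoglobulin-family rises were 3 to 4 and falls 1, cadherin rises 0 to 4 and falls 0 to 5, sheddase rises 2 to 3 and falls 0 to 1. Selectin-list rises were then 0 to 1 and falls 1 to 2, checkpoint rises 1 to 3 and cytokine receptor rises 6 to 9. Where not named, the cause was not tested. Depth limits Icam2 and Alcam, at 0 to 2 counts per library, and Cd200 and Mcam, at 9 to 52.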
